A study of Mus musculus with 4 samples.

Results

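The genes of the fibrillar collagens I, III and V were Col1a1, Col1a2, Col3a1, Col5a1, Col5a2 and Col5a3, taken by symbol from the deposited gene list, 6 of 32285 genes. Each was read in all 4 single-nucleus RNA libraries of mouse back skin, over all nuclei and by class of nuclei. The mice were wild-type C57BL/6, an inbred strain, aged 8 weeks. Intact back skin of 2 mice gave unwounded replicates 1 and 2. Excisional wounds through the whole skin depth, taken from 2 other mice after 1 day, gave wounded replicates 1 and 2. The comparison asks how transcripts of these collagens differ between intact skin and a wound of 1 day, and which nuclei hold them.

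Fibrillar collagens are made as procollagen chains that are hydroxylated and wound into triple helices in the endoplasmic reticulum, exported, trimmed of their propeptides and assembled into fibrils outside the cell. Type I collagen joins alpha 1 and alpha 2 chains (Col1a1, Col1a2), is the main fibril of the dermis and is made chiefly by fibroblasts. Type III collagen, made of Col3a1 chains alone, is abundant in skin and early repair tissue, and type V collagen (Col5a1, Col5a2, Col5a3) sits inside type I fibrils and helps to start them and to limit their width.

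On GRCm38, Col1a1 lies on chromosome 11 (94936224 to 94953042, plus strand), Col1a2 on chromosome 6 (4504814 to 4541544, plus), Col5a1 on chromosome 2 (27886425 to 28039514, plus) and Col5a3 on chromosome 9 (20770050 to 20815067, minus). Col3a1 (45311538 to 45349706, plus) and Col5a2 (45374321 to 45503282, minus) are neighbours on chromosome 1 that point at each other across 24.6 kb. From start to end the genes span 16.8 kb (Col1a1), 36.7 kb (Col1a2), 38.2 kb (Col3a1), 45.0 kb (Col5a3), 129 kb (Col5a2) and 153 kb (Col5a1), so the type V genes are the longest.

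Because all members moved in the same direction, the 250 bases before the start are shown for the 4 of 6 members matched in the RefSeq promoter table (GRCm38.p6), 5′ to 3′ on the gene's strand. For Col1a2 the RefSeq start lies inside the gene span given above, downstream of that span's start, and for the other 3 the window abuts the span. Capitals mark CCAAT, the box bound by NF-Y, and GGGCGG, the box bound by Sp factors, each searched on both strands (as ATTGG and CCGCCC on the other).
Col1a2, chr6:4505368-4505617, plus strand: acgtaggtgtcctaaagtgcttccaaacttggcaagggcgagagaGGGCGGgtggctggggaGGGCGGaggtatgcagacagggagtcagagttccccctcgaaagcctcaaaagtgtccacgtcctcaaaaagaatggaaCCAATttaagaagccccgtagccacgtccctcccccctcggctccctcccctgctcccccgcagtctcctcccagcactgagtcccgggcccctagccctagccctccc
Col3a1, chr1:45311288-45311537, plus strand: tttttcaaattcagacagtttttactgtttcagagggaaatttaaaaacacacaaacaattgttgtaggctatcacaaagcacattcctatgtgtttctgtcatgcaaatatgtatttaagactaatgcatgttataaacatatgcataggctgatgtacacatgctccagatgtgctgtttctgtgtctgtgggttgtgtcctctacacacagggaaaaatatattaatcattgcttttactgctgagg
Col5a1, chr2:27886175-27886424, plus strand: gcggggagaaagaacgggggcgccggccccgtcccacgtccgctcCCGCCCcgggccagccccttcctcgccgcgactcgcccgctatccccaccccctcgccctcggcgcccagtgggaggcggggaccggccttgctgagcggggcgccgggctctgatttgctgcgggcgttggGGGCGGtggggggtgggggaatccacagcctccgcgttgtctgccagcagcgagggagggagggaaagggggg
Col5a3, chr9:20815068-20815317, minus strand: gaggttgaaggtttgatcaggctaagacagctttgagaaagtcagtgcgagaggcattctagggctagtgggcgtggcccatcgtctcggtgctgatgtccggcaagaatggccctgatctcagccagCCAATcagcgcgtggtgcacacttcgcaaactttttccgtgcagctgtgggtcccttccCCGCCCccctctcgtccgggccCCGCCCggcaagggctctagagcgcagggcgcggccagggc
Col1a2 and Col5a3 hold 1 CCAAT and 2 GGGCGG matches each, Col5a1 holds 2 GGGCGG matches, and Col3a1 holds neither motif in this window. Over all 32851 promoter windows of this length, 33.8% hold CCAAT and 32.7% hold GGGCGG, and the matches overlap nowhere in the windows shown. The windows also differ in base content, with 35.2% G and C before Col3a1 and 76.4% before Col5a1.

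The libraries held 6575 and 9001 unwounded and 2297 and 3706 wounded nuclei after filtering, with 8275090, 6475744, 1189262 and 1350822 UMIs (molecule identifiers). Levels are counts scaled to the library total (CPM). The wounded libraries stood apart from the unwounded ones in RNA quality. Malat1, a nuclear RNA, was found in 100% of unwounded nuclei but in 25.2% and 39.3% of wounded ones. Olfactory and vomeronasal receptor genes, silent in skin, lay at 0.00738 and 0.0103 CPM per kb of gene in unwounded and at 0.550 and 0.510 in wounded libraries. Spread over the length of every gene, this density would equal 68.4% and 63.4% of wounded UMIs, against 0.918% and 1.29% of unwounded ones. Wounded levels are therefore also given over the level that this density would give a gene of that length, called observed over length-expected. Pairs of libraries shared 3 to 27 barcodes. The part of this quality gap in the results on the members was not tested.

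All 6 fibrillar collagen genes were lower in wounded skin over all nuclei. In CPM, fold differences were larger for the 3 genes of types I and III than for the 3 of type V. With length-expected counts subtracted, Col5a1 had 0 counts in both wounded libraries, so its fold difference has no measured size. The fitted log2 changes were then -5.38 (Col1a1), -6.09 (Col1a2) and -5.14 (Col3a1), against -3.14 (Col5a2) and -3.57 (Col5a3). Col1a1 stood at 2680 and 3446 CPM in the unwounded libraries and at 42.9 and 78.5 CPM in the wounded ones. Col1a2, its partner chain, stood at 4150 and 4352 CPM against 39.5 and 86.6 CPM. Col3a1 stood at 2350 and 1921 CPM against 53.0 and 71.8 CPM. For these genes even the lower unwounded library was far above the higher wounded one.

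In type V collagen, Col5a1 had 392 and 375 CPM in intact skin, against 57.2 and 62.9 CPM in wounds. Col5a2, its usual partner, stood at 1168 and 978 CPM against 142 and 164 CPM. Col5a3, the chain of a rarer form, stood at 194 and 143 CPM against 35.3 and 31.8 CPM. The groups did not overlap for any member, but the share of all genes without overlap was not counted. The lack of overlap is therefore not shown to be particular to the members. By another measure, 84.2% of the 20930 genes tested passed edgeR's test as lower or higher.

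The ratio of mean CPM was 50.5-fold for Col1a1 (3063 ± 542 against 60.7 ± 25.2, SD, n = 2 mice per group), 67.4-fold for Col1a2 and 34.2-fold for Col3a1. It was 6.39-fold for Col5a1, 7.0-fold for Col5a2 (1073 ± 135 against 153 ± 15.7) and 5.02-fold for Col5a3. By edgeR's quasi-likelihood fit, adjusted over all genes by Benjamini-Hochberg, Col1a1 fell by 6.44 ± 0.29 on the log2 scale (adjusted p = 3.33e-08), and Col1a2 fell by 6.85 ± 0.31. In edgeR's fits ± gives the standard error of the fit, not the SD over mice. Col3a1 fell by 5.87 ± 0.20, Col5a1 by 3.46 ± 0.15, Col5a2 by 3.59 ± 0.16 and Col5a3 by 3.11 ± 0.19 (adjusted p = 1.54e-07, the largest of the 6). Thus 6 of 6 members passed as lower, where 37.3% of the 20930 genes tested passed as lower. The members' median log2 fold change was -4.73, against 0.39 over all genes tested.

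**Figure D1:**
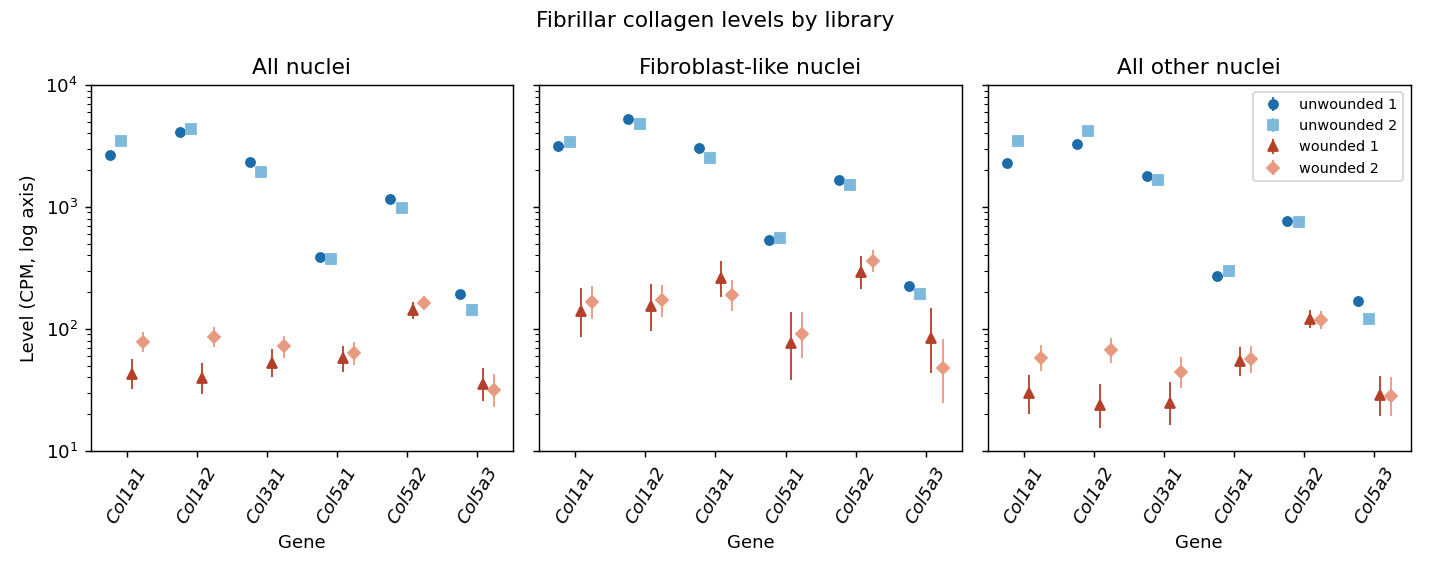
Level of each gene (CPM, log axis) in all nuclei, fibroblast-like nuclei and all other nuclei of the 4 libraries, 1 point per library with exact Poisson 95% intervals that cover counting error only. Unwounded points lie above wounded ones for all 6 genes in all 3 panels, and the gap over all nuclei is wider for Col1a1, Col1a2 and Col3a1 than for the type V genes.

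In bulk sums, fewer cells of a type and less RNA per cell cannot be told apart. Markers of fibroblasts moved the same way: 11 of 15 were lower over all nuclei and none higher (11 and 2 when scaled by library totals alone). Over all genes tested, 37.3% were lower and 46.9% higher (24.6% and 55.6% by library totals alone). The markers' summed level was 3776 and 3567 CPM in intact skin and 1409 and 1374 CPM in wounds. No marker was at 0 in any library. The 6 collagens together held 2.90 and 3.14 times the fibroblast marker sum in intact skin, and 0.263 and 0.361 times in wounds. That marker sum was 316 and 213 times its length-expected level in intact skin, but only 1.58 and 1.67 times in wounds. The wounded ratio is therefore no measure of collagen per fibroblast. Markers of some other types were lower too, with 9 of 9 for skeletal muscle (6644 and 5435 against 858 and 903 CPM), 8 of 9 for macrophages and monocytes, 7 of 8 for adipocytes and 5 of 7 for sebocytes. Other lists were mostly higher, with 6 of 6 tested markers for T cells, 6 of 7 for neutrophils, 6 of 8 for blood endothelium, 5 of 6 for dermal papilla and 4 of 5 for melanocytes. Summed, these lists stood in wounds at 1.24 (dermal papilla, replicate 2) to 5.08 (neutrophil, replicate 2) times their length-expected level. The remaining lists had no majority either way. The part of these markers' cell types in the result was not tested.

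What was left in the wounded libraries differed between the genes, not by type alone. Col1a1 was 4.63 and 9.15 times its length-expected level, and Col3a1 was 2.52 and 3.69 times. Col5a1, the longest gene, was at 0.679 (95% exact Poisson interval 0.527 to 0.861) and 0.806 (0.644 to 0.997) times, below the level that gene length alone would give. Col5a2 was at 2.00 and 2.50 times and Col5a3 at 1.43 and 1.39 times. Of 47 and 117 Col1a2 UMIs in wounded replicates 1 and 2, 23 and 92 were left with length-expected counts subtracted. For Col5a2, 85 of 169 and 133 of 222 were left, so in replicate 1 this type I chain did not stand above Col5a2. The order of the wounded CPM, with Col5a2 highest in both libraries, was thus not the order per length, in which Col1a1 was highest at 2.55 and 4.67 CPM per kb and Col5a1 lowest at 0.373 and 0.411 CPM per kb.

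Nuclei were clustered without the 6 members and named from marker genes. Fibroblast-like nuclei numbered 2255 and 1718 in the unwounded replicates, and 351 and 718 in the wounded ones. The unwounded class joins 5 clusters, while the wounded class is 1 cluster in which 4 of 15 fibroblast markers passed the naming rule. Summed fibroblast markers in that wounded class reached 2547 and 2174 CPM, 5.34 and 3.56 times their length-expected level, with Mgp at 0 in replicate 1. Markers of other types also stood above that level in the same nuclei, further than the fibroblast markers in both libraries except for adipocyte markers in replicate 2: smooth muscle and pericyte markers at 18.2 and 12.7 times (1539 and 1375 CPM), neutrophil markers at 8.95 and 7.17 times, keratinocyte markers at 5.44 and 7.16 times and adipocyte markers at 9.56 and 2.61 times. The wounded class is therefore weakly named, and the part of these other types in its member levels was not tested. Nuclei that no list could name made up 33.6% and 49.5% of unwounded and 79.3% and 71.0% of wounded nuclei.

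Within fibroblast-like nuclei all 6 genes were again lower after wounding. Col1a1 stood at 3160 and 3421 CPM in unwounded and at 140 and 167 CPM in wounded fibroblast-like nuclei, and fell by 4.52 ± 0.28 on the log2 scale. Col3a1 stood at 3053 and 2497 CPM against 259 and 191 CPM, and fell by 3.78. Col5a2 stood at 1677 and 1510 CPM against 294 and 362 CPM, and fell by 2.38. Col1a2 fell by 5.05, Col5a1 by 2.80 and Col5a3 by 1.89, and 6 of 6 passed edgeR's test as lower, where 27.1% of 11530 genes passed as lower.

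The size of these falls depends on how fibroblast-like nuclei are chosen. With nuclei taken 1 by 1, by at least 3 fibroblast marker UMIs and more than of any other type, 3133 and 2468 unwounded and 128 and 99 wounded nuclei were chosen. Col1a1 then stood at 20.6 and 83.9 CPM in wounded nuclei, on 3 and 5 UMIs, which is no higher than over all wounded nuclei in replicate 1 and near it in replicate 2. The fitted changes were -6.88 for Col1a1, -7.64 for Col1a2, -6.54 for Col3a1, -3.10 for Col5a1, -3.61 for Col5a2 and -2.33 for Col5a3. All 6 passed as lower, where 28.4% of 12134 genes did.

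The wounded values of the cluster rest on few counts, with 20 and 42 UMIs of Col1a1 and 12 and 12 of Col5a3. At Leiden resolution 2, which makes finer clusters than the resolution of 1 used here, the wounded class held 6 and 36 nuclei with no UMI of Col1a1, Col3a1 or Col5a3 in either wounded library, and at resolution 0.5 no wounded cluster was named fibroblast-like.

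Against gene length, the wounded fibroblast-like cluster held more than the background for 5 of 6 members. Col1a1 was 28.2 (17.3 to 43.6) and 26.3 (18.9 to 35.5) times its length-expected level there, against 3.01 and 6.41 times in all other wounded nuclei. Col3a1 was at 23.0 and 13.2 times against 1.11 and 2.16 times. Col1a2 was at 14.2 and 12.3 times against 1.11 and 3.39 times. Col5a2 was at 7.74 and 7.43 times against 1.61 and 1.71 times. The interval of Col5a1 in fibroblast-like nuclei reached down to the length-expected level or below it in both libraries, at 1.71 (0.852 to 3.05) and 1.58 (1.00 to 2.37) times. Outside fibroblast-like nuclei, Col5a1 lay under its length-expected level, at 0.608 and 0.682 times.

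**Figure D2:**
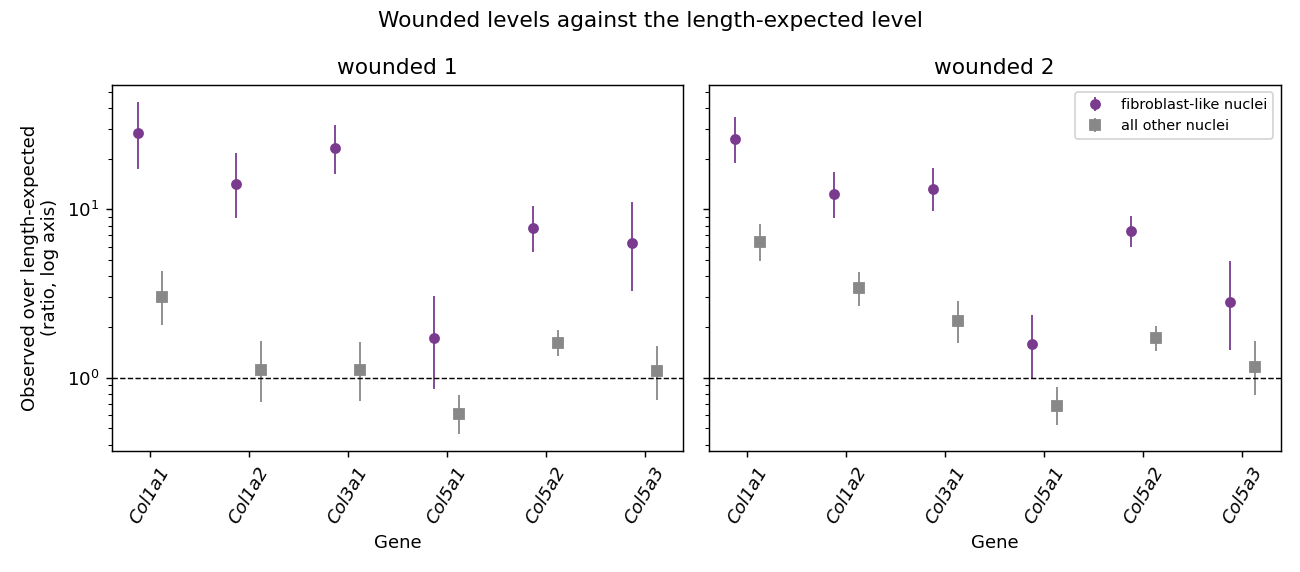
Observed over length-expected level (ratio, log axis) of each gene in wounded replicates 1 and 2, for fibroblast-like and all other nuclei, with exact Poisson 95% intervals and a dashed line at 1. Fibroblast-like points lie above those of the other nuclei for all 6 genes, and Col5a1 lies nearest to the line in fibroblast-like nuclei.

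Whether the gap between fibroblast-like and other nuclei differs with wounding had no stable answer. Nuclei were classed by cluster, and all other nuclei include the unnamed ones. In unwounded libraries Col1a1 was 1.38 and 0.989 times as high in fibroblast-like as in all other nuclei. In wounded libraries it was 4.72 and 2.87 times as high. For Col3a1 these ratios were 1.71 and 1.49, against 10.4 and 4.28 in wounds. For Col5a2 they were 2.20 and 2.02 against 2.42 and 3.03.

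The class by wound interaction, tested with edgeR with the library as a block, was 1.81 ± 0.50 for Col1a1 (log2, adjusted p = 0.00641), 1.65 ± 0.52 for Col1a2 (adjusted p = 0.0216) and 2.21 ± 0.47 for Col3a1 (adjusted p = 0.000105). It did not pass for Col5a1 (-0.10), Col5a2 (0.61) or Col5a3 (0.82), so 3 of 6 members passed as higher, where 7.38% of 19478 genes did. With nuclei classed 1 by 1, an alternative added after seeing the data, the sign was the opposite: -1.68 for Col1a1 (adjusted p = 0.00816), -2.10 for Col1a2 (adjusted p = 0.000396) and -2.21 for Col3a1 (adjusted p = 8.76e-05). There 5 of 6 members passed as lower, where 5.25% of 20292 genes did. At resolution 2, with 6 and 36 wounded nuclei, the 3 estimates were -9.30, -0.21 and -9.87 and none passed. Col1a2 also failed without unwounded replicate 2 (adjusted p = 0.0721) and without wounded replicate 1 (adjusted p = 0.320), and Col1a1 failed once length-expected counts were subtracted (adjusted p = 0.0538).

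In intact skin, member transcripts were found in every class of nuclei. Of all member UMIs, 43.6% and 65.1% lay outside fibroblast-like nuclei in unwounded replicates 1 and 2. These other nuclei held 55.5% and 69.7% of all UMIs. Unnamed nuclei alone held 30.7% and 46.0% of member UMIs, and 1027 and 1046 of them met the fibroblast rule applied 1 by 1. How many of the unnamed nuclei are fibroblasts was not tested. Skeletal muscle-like nuclei, not a usual source of these chains, were lowest for each of the 6 genes by mean, with Col1a1 at 595 ± 317 CPM (n = 2) against 3290 ± 184 in fibroblast-like nuclei. Macrophage and monocyte-like nuclei held 2029 ± 685 CPM of Col1a1. Among the 12 classes with at least 20 nuclei in each library, ordered by mean Col1a1, each of the 9 lowest overlapped the next in its range over the 2 libraries, while fibroblast-like nuclei lay clear of mast cell-like nuclei below and of unnamed nuclei above (4556 ± 426 CPM).

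Col5a1 and Col5a2, but not Col5a3, set fibroblast-like nuclei apart more clearly than the type I chains did. Col5a1 (549 ± 11.4 CPM) and Col5a2 (1593 ± 118 CPM) were highest in fibroblast-like nuclei, clear of the unnamed nuclei in both libraries. Col1a1 and Col1a2 were highest in unnamed nuclei, and for Col3a1 and Col5a3 the 2 classes overlapped. Col5a3 was 1.34 and 1.59 times as high in fibroblast-like as in all other nuclei, against 1.38 and 0.989 times for Col1a1. Keratinocyte-like nuclei held 1941 ± 947 CPM of Col1a1, and they join 2 clusters that differed: 1206 and 2151 CPM in the larger, led by Skint5 and Skint6, and 3543 and 4585 CPM in the smaller, led by cornified envelope genes. The smaller cluster had only 19 and 201 nuclei in unwounded replicates 1 and 2, with a median of 375.5 UMIs. The larger had 372 and 595 nuclei, with a median of 608 UMIs.

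**Figure D3:**
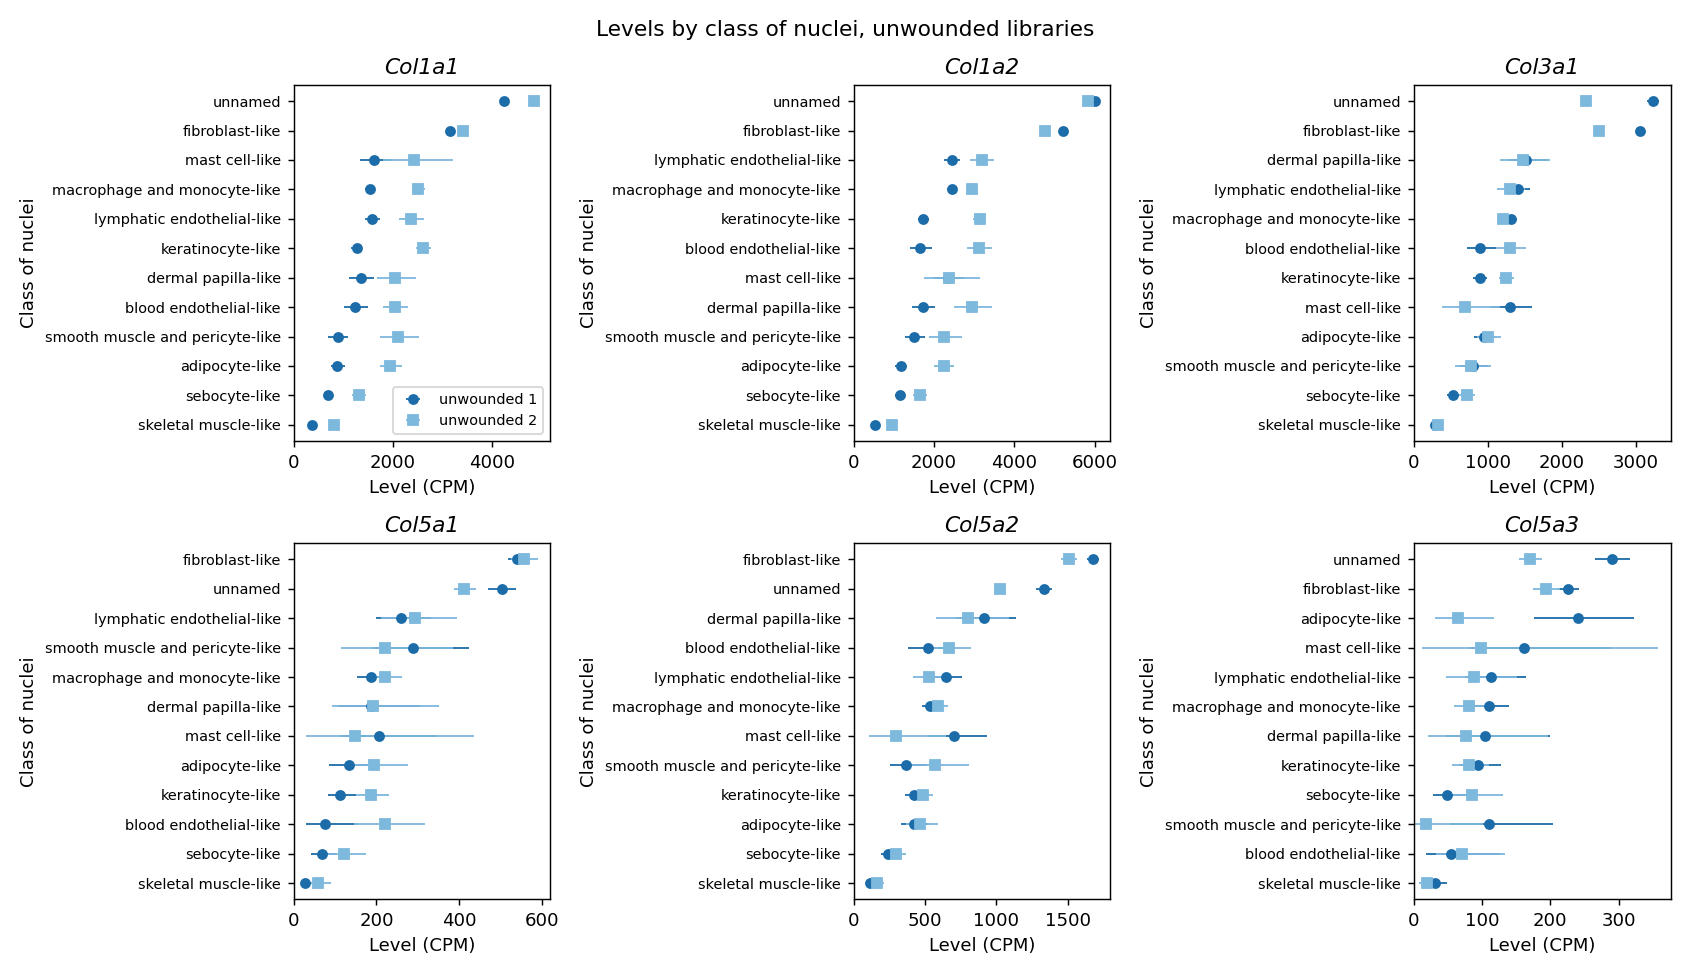
Level of each gene (CPM) by class of nuclei in the 2 unwounded libraries, classes ordered by their mean and points with exact Poisson 95% intervals. Skeletal muscle-like nuclei have the lowest mean over the 2 libraries for every gene, and fibroblast-like nuclei are highest for Col5a1 and Col5a2.

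With each nucleus thinned to 250 UMIs, a Col1a1 UMI was found in 52.8% (95% exact binomial interval 50.7 to 54.8) and 56.4% (54.0 to 58.8) of unwounded fibroblast-like nuclei and in 8.92% (5.46 to 13.6) and 25.8% (20.4 to 31.8) of skeletal muscle-like nuclei. Without thinning the shares were 91.8% and 90.0% against 68.5% and 66.0%, at median depths of 1364 and 902.5 against 2634 and 1172.5 UMIs. For Col5a2 the thinned shares were 30.9% and 29.1% against 3.29% and 2.87%. In wounded libraries any member was found in 24.1% and 22.9% of thinned fibroblast-like nuclei and in 6.19% and 9.38% of the others, leaving out 15, 89, 297 and 665 shallower nuclei (31.6%, 29.1%, 12.9% and 12.6% without thinning).

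Shallow nuclei held relatively more type I collagen. With nuclei divided by depth into 4 equal groups, from the shallowest group to the deepest, Col1a1 went from 3237 to 2377 CPM in unwounded replicate 1 and from 4467 to 2989 CPM in replicate 2. Col5a2 went the other way, from 976 to 1240 CPM and from 776 to 1121 CPM. How much of the spread outside fibroblast-like nuclei is free RNA was not tested.

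The ratios between chains also differed between classes. Col5a2 counts were 0.531 (95% interval 0.514 to 0.547) and 0.441 (0.423 to 0.461) times Col1a1 counts in unwounded fibroblast-like nuclei, and 0.332 and 0.216 times in all other nuclei. Apart from dermal papilla-like nuclei (0.672 and 0.393), all 8 other named classes with at least 50 nuclei lay below the fibroblast-like ratio in both libraries, with intervals clear of it for 5 classes in replicate 1 and for 8 in replicate 2. Their ratios ran from 0.303 in skeletal muscle-like to 0.479 in adipocyte-like nuclei in replicate 1, and from 0.187 in keratinocyte-like to 0.326 in blood endothelial-like nuclei in replicate 2. Col1a2 over Col1a1 was less far apart, at 1.65 and 1.39 in fibroblast-like nuclei and 1.43 and 1.21 in all others.

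The ratio of type V to type I counts was higher in wounded libraries in both classes. Col5a2 over Col1a1 was 2.10 (1.21 to 3.78) and 2.17 (1.49 to 3.20) in wounded fibroblast-like nuclei and 4.10 and 2.05 in the others, where both genes include the background that follows gene length. Of member UMIs over all nuclei, Col5a2 made up 10.7% and 8.72% in intact skin and 38.4% and 33.1% in wounds, while Col1a2 went from 38.0% and 38.8% to 10.7% and 17.5%.

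**Figure D4:**
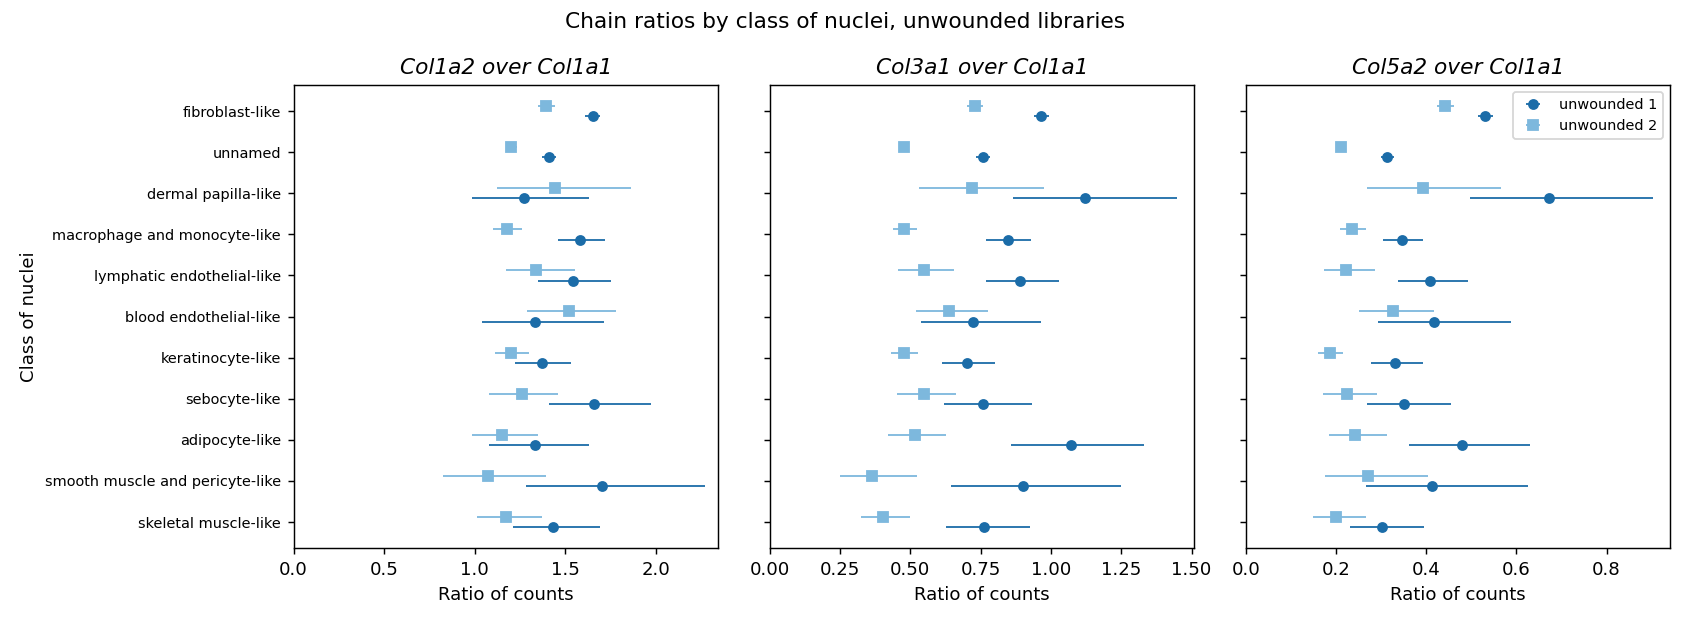
Ratio of Col1a2, Col3a1 and Col5a2 counts to Col1a1 counts by class of nuclei in the 2 unwounded libraries, with exact binomial 95% intervals. Col5a2 over Col1a1 is higher in fibroblast-like nuclei (0.531 and 0.441) than in skeletal muscle-like or keratinocyte-like nuclei of the same library.

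Fibroblast-like clusters of unwounded skin ranged more widely in Col1a1 than in Col5a1 or Col5a2. The cluster led by Spag17 and Gpc3 (U12) had Col1a1 at 1068 and 1489 CPM, the lowest of the 5, and Col5a2 at 1767 and 1789 CPM, the highest by mean. The cluster in which C7 was among the leading genes (U0) had Col1a1 at 3921 and 3916 CPM and Col1a2 at 6537 and 6706 CPM. The cluster led by Sntg1 and Ebf2 (U4) lay between them, with Col1a1 at 2203 and 2816 CPM. Col5a2 over Col1a1 was 1.65 and 1.20 in U12 and 0.453 and 0.422 in U0. In order of mean Col5a2, the ranges of U4, U2, U0 and U12 overlapped from one to the next, so these neighbours do not differ beyond the spread between libraries, and U15 lay below them at 1367 and 1314 CPM. These levels are a description, since the clusters come from the same nuclei.

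**Figure D5:**
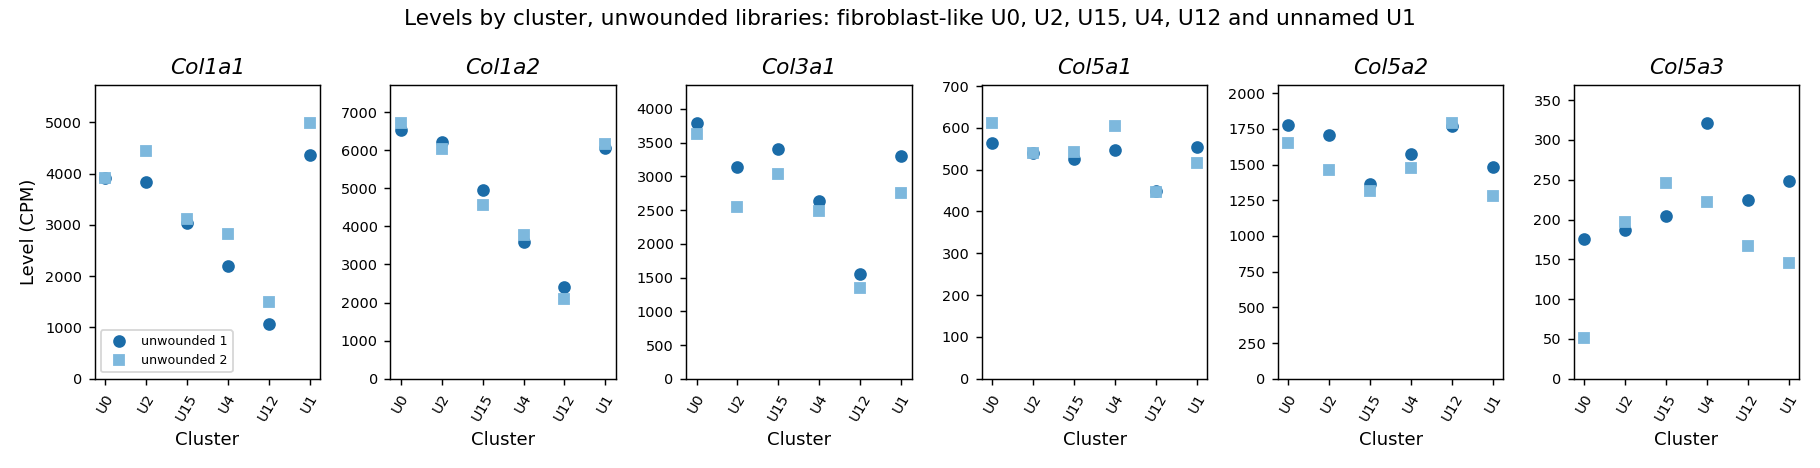
Level of each gene (CPM) in the 2 unwounded libraries for the 5 fibroblast-like clusters (U0, U2, U15, U4, U12) and the unnamed cluster U1, in which 3 of 15 fibroblast markers passed. Col1a1 runs from 1068 CPM in U12 to 4436 CPM in U2 among the fibroblast-like clusters, while Col5a1 and Col5a2 vary less.

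Across 11 classes in 2 unwounded libraries (22 points that share libraries and depth), the type I partners Col1a1 and Col1a2 had a Pearson r of 0.963 for log2(CPM + 1), and Col3a1 and its genomic neighbour Col5a2 had r = 0.970, the highest of the 15 pairs. Col5a3 was least like the others, down to r = 0.378 with Col1a1. Outside the members, the genes most like Col1a1 were Rian (0.976), Cdh4 (0.916), Tnxb (0.912) and Man1a (0.912). Those most like Col3a1 were Adamts2 (0.948), which cuts the procollagen N-propeptide, Fbn1 (0.942), Fndc3b (0.942) and Meg3 (0.932). For Col5a1 they were Pard3b (0.934), Sec24d (0.925), a coat protein of procollagen export, Lpar1 (0.924) and Dlc1 (0.923).

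The counts that follow stand beside 37.3% of all genes tested that passed as lower and 46.9% that passed as higher over all nuclei. Genes that fold, export and process procollagen were mostly lower in wounded skin, with smaller median changes than the members. Of 18 hydroxylation and folding genes, 12 were lower and 3 higher (median log2 fold change -1.54, against 0.39 over all genes). Serpinh1, the collagen chaperone HSP47, went from 71.7 and 72.6 CPM to 3.36 and 4.44 CPM (log2 -4.97). P4ha2, a prolyl hydroxylase subunit, went from 113 and 145 to 21.9 and 14.8 CPM. Of 7 export genes 6 were lower (median -2.10), among them Sec24d, at 485 and 473 against 81.6 and 82.9 CPM, and Mia3, which loads procollagen into export carriers, at 180 and 169 against 47.1 and 52.6 CPM.

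Of 8 propeptide removal genes 6 were lower and 2 higher (median -1.37). Pcolce2, an enhancer of C-propeptide removal, went from 295 and 295 to 63.9 and 72.5 CPM, and Bmp1, the C-proteinase, from 225 and 187 to 41.2 and 46.6 CPM. Scaled by library totals alone, 4 were lower and 2 higher, where 24.6% of all genes were lower. Of 5 crosslinking enzymes 4 were lower and 1 higher (median -1.36; 2 and 1 by library totals alone), with Lox, which starts crosslinks, at 28.4 and 24.6 CPM in unwounded and at 0 and 7.40 CPM in wounded libraries. A count of 0 in wounded replicate 1 allows up to 2.52 CPM. Of 12 fibril partners 10 were lower and 2 higher (median -2.06). Dcn, a proteoglycan on the fibril surface, went from 527 and 456 to 82.4 and 81.4 CPM, and Sparc, a collagen-binding matrix protein, from 559 and 660 to 99.2 and 113 CPM.

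Of 9 collagen receptors 4 were lower and 4 higher (median 0.42), shares and a median near those of all genes. Ddr2, a receptor kinase for fibrillar collagen, went from 427 and 410 to 106 and 95.5 CPM. Of 4 degradation genes tested 3 were lower and 1 higher (median -2.70), with Mmp14, a membrane collagenase, at 307 and 318 against 19.3 and 32.6 CPM. Of 12 transcription factors of type I collagen genes 11 were lower and none higher (median -1.89). Yy1 went from 101 and 93.0 to 19.3 and 25.2 CPM.

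The other 5 fibrillar collagen genes had 4 higher and none lower (median 4.57), where 46.9% of all genes were higher. Col11a1, a cartilage chain related to Col5a1, had 1.09 and 0.618 CPM in intact skin and 136 and 121 CPM in wounds, or 1.3 and 1.25 times its length-expected level. Col24a1 stood at 2.30 and 6.02 against 157 and 173 CPM, or 1.10 and 1.31 times. Of the 17 genes in these 9 lists that passed as higher, 16 were at most 2 times their length-expected level in both wounded libraries, and Loxl3 was the exception at 5.90 and 4.42 times.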

How the data were processed

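The 10x Genomics v3.1 chemistry for 3' ends was used, per the labels' protocols. The deposited values are raw UMI counts per gene and barcode, which the authors made with Cell Ranger 5.0.1 on GRCm38, per the submitters' processing notes. The treatment of intronic reads is not given in the sources used here.

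Nuclei needed 200 or more genes and no more than 5% mitochondrial UMIs. The automatic Scrublet threshold marked 0, 0, 11 and 0 nuclei, so the highest scores were removed at 0.8% per 1000 barcodes. Gene lengths came from GENCODE vM21 (32235 genes matched), and 1466 receptor genes gave the length-expected density. Each group was clustered separately with scanpy 1.11.5 (2000 variable genes without the members, 30 components, 15 neighbours, Leiden resolution 1). A cluster was named when at least 3 markers and 25% of a list were 2-fold above the group's median cluster at 20 CPM or more (5 CPM added to each), with a geometric mean fold of at least 1.3 and 1.5 times the next type. These thresholds were set after the clusters, with member levels beside them, had been seen. A joint clustering was tried first and dropped, since nearly all wounded nuclei fell into few clusters of their own.

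Counts were summed per library and tested with edgeR 4.0.16 (R 4.3.3; filterByExpr, TMM, glmQLFit and glmQLFTest, adjusted p under 0.05). DESeq2 1.42.0 was an alternative. TMM scaling makes the members' fitted falls over all nuclei larger than the falls in raw CPM. On simulated data, 98%, 85% and 52% of 200 genes changed 4-fold were recovered in the all-nuclei, fibroblast-like and interaction tests. The simulation drew every library from the same pooled profile, with a fixed dispersion and no background that follows gene length. In the data 84.2% of the genes tested over all nuclei passed, so these rates may not carry over. Means with SD are over 2 mice, while ± after a fitted log2 change is the standard error of the edgeR fit. UMI intervals are at 95% and cover counting error only. The exact permutation test was not used, since 2 against 2 libraries cannot reach the threshold. The members and lists were chosen with earlier results of these data known. Named genes were the members, up to 3 genes of smallest p from each list, and the 4 genes most like Col1a1, Col3a1 and Col5a1 over unwounded classes. Malat1, Loxl3 and genes that label clusters were named outside this rule, after their values were seen.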

Additional observations from a re-analysis of the deposited data

Results flagged for a closer look

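The change with wounding differed between fibroblast-like and other nuclei for 3 members by the interaction test of edgeR, with a smaller fitted fall in fibroblast-like nuclei classed by cluster. The difference was 1.81 for Col1a1, 1.65 for Col1a2 and 2.21 for Col3a1 on the log2 scale, where 7.38% of all genes passed as higher. None of the 3 passed at Leiden resolution 2. With nuclei classed 1 by 1 all 3 passed with the opposite sign (-1.68, -2.10 and -2.21), where 5.25% of all genes passed as lower. With 2 libraries in each group, no sample could be judged as standing far from the others of its group.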

How the results depend on the processing

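All 6 members were lower and passed in every alternative that gave a value, 15 over all nuclei and 17 in fibroblast-like nuclei, one of these added after seeing the data (the unnamed cluster with 3 fibroblast markers added). Fitted log2 fold changes of Col1a1 ran from -6.95 to -5.38 over all nuclei and those of Col5a2 from -3.74 to -2.79, while Col5a1 reached -13.64 with length-expected counts subtracted, which left it 0 counts in wounds. In fibroblast-like nuclei Col1a1 ran from -13.68 to -3.87, Col1a2 from -7.64 to -4.53, Col3a1 from -13.64 to -3.21, Col5a1 from -3.58 to -2.17, Col5a2 from -5.72 to -1.94 and Col5a3 from -10.42 to -0.99. The values past -10 come from resolution 2 with 0 counts in wounds and are no measure of size. In fibroblast-like nuclei the adjusted p of Col5a3 reached 0.0470. The replicate numbers are shared between the groups, and the main fits did not pair by them. Deviations of the 2 replicates numbered 1 had r = 0.066. This correlation cannot exclude shared handling, since it uses 1 library of each group and wounded counts are low. With the replicate block 6 of 6 members passed as lower in both fits, where 37.5% of all genes over all nuclei and 23.5% in fibroblast-like nuclei did. At Leiden resolution 0.5 and without doublet removal no wounded nuclei were named fibroblast-like, so neither gave a value for that class. At resolution 2 only 1 member passed the interaction, Col5a2 at -3.91, and the estimates of Col1a1 (-9.30), Col1a2 (-0.21) and Col3a1 (-9.87) changed sign on 6 and 36 wounded nuclei with 0 to 2 UMIs of each member in a library. With length-expected counts subtracted, 4 members passed the interaction as higher, where 10.6% of 15541 genes did. Col5a1 reached 8.00, which rests on counts set to 0 outside fibroblast-like nuclei. With nuclei classed 1 by 1, 5 members passed the interaction as lower, where 5.25% of 20292 genes did. Col1a1 at -1.68, Col1a2 at -2.10, Col3a1 at -2.21 and Col5a2 at -1.79 were reversed in sign, and the cause was not tested. Leaving out 1 library left 2 to 3 interaction calls. The median of all genes moved from 0.39 to 0.63 with RLE factors and to 1.19 with library totals, and the share of genes called lower fell from 37.3% to 33.8% and 24.6%; the 6 members stayed lower in both. By library totals 9 of 18 folding genes and 9 of 12 transcription factors were lower. Depth limits the wounded levels, where 3 counts equal 2.52 and 2.22 CPM.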

Other observations

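Barcodes that failed the filters also held member transcripts. They were used above only in the alternative over all nuclei that summed all deposited barcodes. In wounded replicates 1 and 2 they held 413431 and 2022841 UMIs, with Col1a1 at 111 and 118 CPM, 16.6 and 16.3 times its length-expected level, against 42.9 and 78.5 CPM in the nuclei kept. Col5a1 stood at 94.3 and 52.9 CPM in them, or 1.54 and 0.802 times its length-expected level. In unwounded replicate 2, such barcodes held 26789 UMIs with Col1a1 at 4367 CPM.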
